A study of Mus musculus with 23 samples.

Results

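The response described here is that of mouse embryonic stem cells labelled ERF knockout, with RAS present, when they leave the naive condition 2iL for the epiblast-inducing condition FA. It rests on 6 of the 23 libraries of the study, chosen by their labels: 3 in FA and 3 in 2iL, all of the same genotype. The cells are derived from the Raslox/lox line, which lacks functional H-Ras and N-Ras, holds a floxed copy of the remaining Ras gene and carries CreERT2 under a ubiquitin promoter. These alleles are shared by all groups of the report, and the 6 libraries received no 4-hydroxytamoxifen, the drug that activates the recombinase. 2iL is serum-free N2B27 medium with the MEK inhibitor PD0325901, the GSK3 inhibitor CHIR99021 and LIF. FA is N2B27 with knockout serum replacement, 12 ng/ml FGF2 and 20 ng/ml Activin A, given for 48 hours on fibronectin. Where a comparison is made, it is with the same line carrying wild-type ERF and RAS present (3 libraries in 2iL, 2 in FA), or with the ERF knockout label after 6 days of 4-hydroxytamoxifen (RAS deleted, 3 libraries in each medium). Nothing in the labels says that the replicates are separate cultures or the knockout line more than 1 clone. The p-values thus measure the spread between libraries, estimated in 1 model over all 23, wild-type ERF with RAS deleted included.

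ERF belongs to the ETS transcription factors and represses its targets. Active ERK phosphorylates it and moves it out of the nucleus, so ERF lies downstream of FGF, RAS and MEK. In 2iL the MEK inhibitor keeps ERK activity low and the naive transcription factor network is held in place, whereas FGF and Activin in FA carry the cells to a formative, epiblast-like state. That passage is known for the loss of factors such as KLF4 and ESRRB and the gain of FGF5, OTX2 and the de novo DNA methyltransferases.

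Erf itself was measured first. Its level was 129, 123 and 96.1 CPM (read counts normalised for sequencing depth, scaled to the TMM-adjusted library size) in the 3 libraries in 2iL and 50.7, 64.8 and 56.9 CPM in FA. The change of -1.01 on the log2 scale (SE 0.13, edgeR quasi-likelihood adjusted p 2.06e-06) stood at the 2-fold minimum, and the gene was no longer called in 4 of the alternatives. Erf RNA was therefore present in all libraries labelled knockout. With wild-type ERF it measured 70.6, 76.4 and 85.7 CPM in 2iL and 69.8 and 56.5 CPM in FA. A count per gene does not show a small deletion, so these values do not check the label, and the genotype is given as labelled. Hras, disrupted in all lines, gave 15.5, 15.1 and 14.4 CPM in 2iL and 19.3, 17.7 and 21.6 CPM in FA. Nras varied between replicates, at 43.6, 7.74 and 30.7 CPM in 2iL and 17.3, 11.4 and 18 CPM in FA, and its change of -0.82 (SE 0.57) did not pass (edgeR adjusted p 0.263).

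The 3 libraries in 2iL held 18985652 to 20657129 counts and the 3 in FA 23332366 to 24186715. The predicted gene Gm26917 took 23.6 to 26.1% of each. Replicates correlated at 0.9843 to 0.9885 over log CPM. Genes on chromosome 11 were slightly higher in replicate 1 than in the other replicates, with median log2 differences of 0.17 in 2iL and 0.13 in FA. Both replicate 1 libraries with wild-type ERF stood apart in another way: their chromosome 8 genes lay 0.34 (2iL) and 0.29 (FA) above the other replicates of their group (median, log2).

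FA changed the RNA level of 4018 of 20372 tested genes (19.7%) by at least 2-fold at an edgeR adjusted p under 0.05, a pair of conditions that defines a call below. Of these, 2499 rose (12.3% of genes tested) and 1519 fell (7.46%). The counts of each list below are read against these shares, and a count near them is no result about the list. Among the genes that rose, 2052 were protein coding and 231 long noncoding; 1388 changed 2 to 4-fold, 875 changed 4 to 16-fold and 236 more than that. Falls were smaller: 999 were 2 to 4-fold, 447 were 4 to 16-fold and 73 exceeded 16-fold. The median absolute log2 change was 1.85 for rises and 1.63 for falls. CPM ranges of the 2 media did not overlap for 2428 of the rises and 1484 of the falls, against 11850 (58.2%) of all genes tested. At the extreme, 12 genes had no more than 3 counts in any 2iL library and a mean of at least 5 CPM in FA. Named genes among them, singled out after their values were seen, were Vrtn, Hoxb1, Hoxb2, Hoxb3, Fgf5, Cxcl12, Alox15, Oasl2, Gbp2 and Irgm1. No gene showed the reverse, from a mean of 5 CPM in 2iL to the floor of 3 counts in FA.

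**Figure D1:**
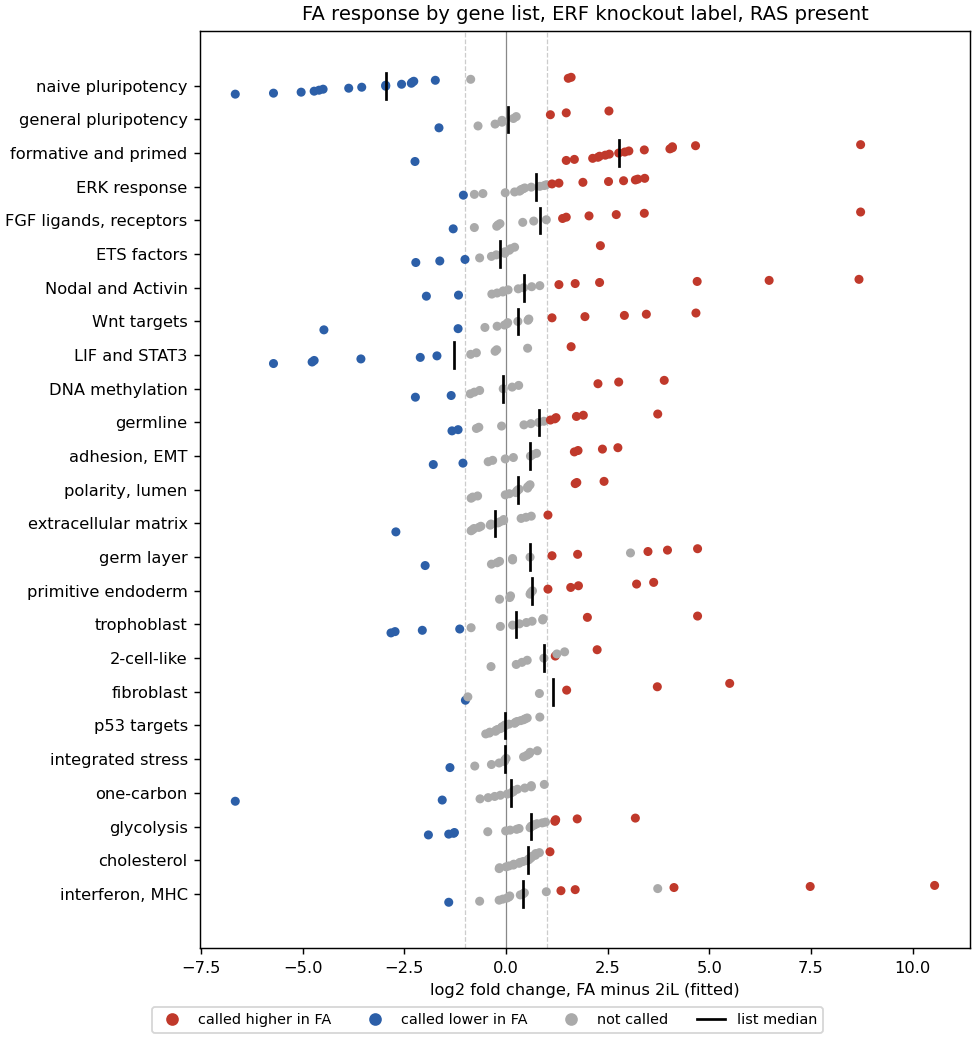
Fitted log2 fold change, FA minus 2iL (x axis), of each tested member of 25 gene lists (y axis) under the ERF knockout label with RAS present. Each point is 1 gene, red where called higher, blue where called lower and grey where not called; black bars are list medians and dashed lines mark the 2-fold minimum. The naive list lies to the left with a median of -2.96 and the formative list to the right with a median of 2.77.

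The largest rises and falls are given among called genes with separate CPM ranges in the 2 media and a mean of at least 10 CPM in the higher one, passing over predicted genes. Lefty1 (chromosome 1, 180935022 to 180938400 on GRCm38), which encodes a secreted inhibitor of Nodal, went from 0.865, 1.14 and 0.788 CPM in 2iL to 438, 367 and 344 CPM in FA, with a fitted log2 fold change of 8.68 (SE 0.21, edgeR adjusted p 1.16e-17). Lefty2, its neighbour and close paralog, rose by 6.47 (SE 0.25, edgeR adjusted p 3.58e-13); reads could be divided between the pair. Fgf5, the FGF ligand that marks the epiblast-like state, was at 0.0481, 0 and 0.0526 CPM in 2iL and at 21.2, 12.5 and 16.8 CPM in FA, at least 109-fold higher when 2iL is set to the floor of 3 counts per library. Vrtn, a gene of vertebral patterning, was at least 96.2-fold higher, at 16.8, 10.1 and 17.7 CPM in FA.

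Trim67, a TRIM-family ubiquitin ligase gene, rose from 0.625, 1.03 and 0.315 CPM to 44.8, 40.8 and 49.8 CPM. Xist, the noncoding RNA of X inactivation, rose from 0, 0.217 and 0.21 CPM to 10.1, 11 and 15.8 CPM. It overlaps an antisense gene, and whether counting used strand is not given in the sources used here. Fndc3c1 (6.16), the matrix protease gene Mmp25 (5.52), the collagen receptor gene Mrc2 (5.33), the zinc-finger factor gene Wt1 (5.09) and Thbs1 (5.07), which encodes thrombospondin 1, were other large log2 rises.

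Tdh led the falls chosen in the same way. Tdh (chromosome 14, 63492347 to 63509092), which encodes threonine dehydrogenase, an enzyme known for its use by naive mouse stem cells, stood at 252, 232 and 243 CPM in 2iL and at 2.89, 1.61 and 2.63 CPM in FA (log2 change -6.66, SE 0.46, edgeR adjusted p 5.45e-09). Jam2, a junctional adhesion molecule, fell from 191, 212 and 200.3 CPM to 2.53, 4.00 and 2.31 CPM. Inhbb, the activin beta-B subunit gene, fell from 39.6, 34.9 and 31.7 CPM to 0.448, 0.521 and 0.438 CPM. Aqp3, a water and glycerol channel, fell from 74.2, 76.3 and 82.0 CPM to 1.39, 1.17 and 1.51 CPM.

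Klf4 and Prdm14, both naive factors, fell by 5.72 and 5.04 on the log2 scale. Lrrc31 (-6.46), Ly6g6e (-5.79), the proline transporter gene Slc6a7 (-5.51), Lrrc34 (-5.14), Cpsf4l (-5.06) and Dmgdh (-4.96), dimethylglycine dehydrogenase, completed the 12 falls. Ly6g6e belongs to a family of similar genes.

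Per length (in TPM, transcript abundance normalised for length and depth), the 4 most abundant called genes in each direction were as follows. Hsp90aa1, the inducible HSP90 chaperone, was at 2309.7 ± 9.53 TPM (SD, n = 3) in 2iL and 863 ± 48.0 TPM (SD, n = 3) in FA. Apoe, apolipoprotein E, went from 728 ± 146 to 259.6 ± 63.7 TPM (SD, n = 3 each), and Spp1, osteopontin, from 361 ± 23.4 to 25.1 ± 5.30 TPM (SD, n = 3 each). Gpx4, the lipid peroxide reductase, went from 325 ± 27.0 to 131 ± 16.8 TPM (SD, n = 3 each). Higher in FA were Mif, a cytokine gene, from 317 ± 19.8 to 667 ± 52.5 TPM (SD, n = 3 each), and Igfbp2, an IGF-binding protein, from 126 ± 9.87 to 485 ± 66.4 TPM (SD, n = 3 each). The short RNA genes Rnu1b1, of the U1 family, and Rny3, a Y RNA, were also among them; each call was lost when 1 library was left out (0.97 without FA replicate 2 and 0.96 without 2iL replicate 2), and TPM of such short genes depends strongly on the length used.

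The promoter windows of 3 genes are shown, chosen because they hold a motif with the GGAA core that ETS factors bind. They are those genes, among the 40 with the largest changes or response differences (25 had a window), whose 250 bases before the start hold CCGGAA on either strand. Sequences are from RefSeq on GRCm38.p6, 5′ to 3′ on the gene's strand, with the motif (or its reverse complement TTCCGG) in capitals. The windows lie at chr5:98253934-98254183 (+ strand) for Fgf5, chr11:84957504-84957753 (+ strand) for Car4 and chr2:13491877-13492126 (- strand) for Cubn. The genes themselves span 98254184 to 98277030 (Fgf5), 84957786 to 84966044 (Car4) and 13276338 to 13491813 (Cubn) in the GENCODE annotation of the same build.
Fgf5: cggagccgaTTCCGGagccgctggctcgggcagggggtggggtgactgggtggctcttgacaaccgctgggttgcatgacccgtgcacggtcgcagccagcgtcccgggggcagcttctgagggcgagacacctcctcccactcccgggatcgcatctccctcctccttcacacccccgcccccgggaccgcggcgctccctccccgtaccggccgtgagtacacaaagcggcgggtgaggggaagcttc
Car4: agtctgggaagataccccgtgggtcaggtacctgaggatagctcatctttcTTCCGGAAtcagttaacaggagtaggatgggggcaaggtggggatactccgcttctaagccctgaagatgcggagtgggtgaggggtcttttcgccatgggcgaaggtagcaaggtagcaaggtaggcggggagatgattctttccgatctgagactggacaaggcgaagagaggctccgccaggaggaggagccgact
Cubn: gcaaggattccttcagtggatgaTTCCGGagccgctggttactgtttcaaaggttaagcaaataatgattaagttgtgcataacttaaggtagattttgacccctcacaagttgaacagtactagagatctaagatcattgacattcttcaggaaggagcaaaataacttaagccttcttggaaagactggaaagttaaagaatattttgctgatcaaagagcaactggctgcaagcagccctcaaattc
In Car4 a match on each strand overlaps the other, while Fgf5 and Cubn have 1 match each. A gene can have several windows (1.22 on average) and was counted once if any of them held the motif. That was so for 3674 of the 27025 genes of the table (13.6%) and for 2883 of the 12852 tested genes with a window (22.4%). Of the named genes with a window it was so only for the 3 shown, of 25 (12.0%), a smaller share than among tested genes. Of genes with a window, it was so for 156 of 1608 that rose in FA (9.70%) and for 140 of 981 that fell (14.3%). None of 10 naive and 14 ERK response genes held it, against 1 of 9 formative genes (Fgf5) and 4 of 7 primitive endoderm genes, which have 1.71 windows each on average. A match is a run of letters and not a measured binding site.

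Naive pluripotency genes fell almost throughout. Of 18 members, 15 were called lower, 2 higher and 1 was not called, and the median log2 change was -2.96 against 0.02 over all genes tested. The summed level of the list was 4572, 4823 and 4596 CPM in 2iL and 823, 1058 and 764 CPM in FA. Klf4 (chromosome 4, 55527143 to 55532466) stood at 273, 305 and 265 CPM in 2iL and at 5.50, 5.60 and 4.90 CPM in FA (log2 change -5.72, SE 0.15, edgeR adjusted p 1.16e-17). Tfcp2l1, a target of LIF signalling, fell from 919.9, 947 and 970.3 CPM to 34.0, 44.3 and 29.8 CPM. Esrrb, an orphan nuclear receptor of the same network, fell from 541, 572 and 551 CPM to 21.1, 31.6 and 21 CPM. In each of these 3 genes the highest FA library was below the lowest 2iL library by far more than the spread within a group.

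Nanog fell less than those, from 379, 379 and 310.1 CPM to 95.9, 129 and 94.8 CPM (log2 change -1.74, SE 0.15, edgeR adjusted p 9.56e-09). Tbx3 changed by -3.87, Nr5a2 by -4.60, Klf2 by -2.57 and Zfp42 by -2.96, and Pecam1, a surface marker of the naive state, by -2.27. FA replicate 2 held the highest level of Nanog, Esrrb, Tfcp2l1 and Tbx3 among the FA libraries. Dppa5a (-0.87) did not reach 2-fold; it was called only when that replicate was left out.

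Both exceptions rose. Dppa3, a maternal factor that protects DNA from demethylation in the zygote, was at 2.40, 1.52 and 0.736 CPM in 2iL and at 4.52, 5.73 and 3.39 CPM in FA (log2 change 1.53, SE 0.29, edgeR adjusted p 1.96e-04). Gbx2, a homeobox gene that responds to LIF, went from 4.37, 5.14 and 4.57 CPM to 15.8, 11.6 and 15.2 CPM (1.60, SE 0.24, edgeR adjusted p 1.32e-05). Neither gene's ranges overlapped between the media.

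Factors shared by naive and epiblast-like cells were mixed. Of 10 general pluripotency genes, 3 rose, 1 fell and 6 were not called, with a median of 0.04. Sox2 fell from 211, 237 and 228 CPM to 65.8, 86.5 and 63.0 CPM (log2 change -1.65, SE 0.11, edgeR adjusted p 6.91e-11). Pou5f1, which encodes OCT4, was at 529, 572 and 562 CPM in 2iL and 326, 361 and 342 CPM in FA; its change of -0.69 had an edgeR adjusted p of 1.90e-07 but not the 2-fold size. Sall4 was at 218, 232 and 201 CPM in 2iL and 185, 177 and 177 CPM in FA (log2 change -0.27, SE 0.12, edgeR adjusted p 0.066).

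Lin28a, an inhibitor of let-7 maturation, rose from 43.6, 52.5 and 55.1 CPM to 289, 292 and 289 CPM. Utf1 went from 86.9, 82.3 and 79.9 CPM to 219.8, 231 and 246 CPM. Dppa2 (1.09) also rose, though not when 2iL replicate 3 or FA replicate 2 was left out (0.94 and 0.97). Pou5f1, Sox2, Sall4 and Utf1, which are among the markers of mouse pluripotent cells in both states, were above 60 CPM in all 6 libraries.

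**Figure D2:**
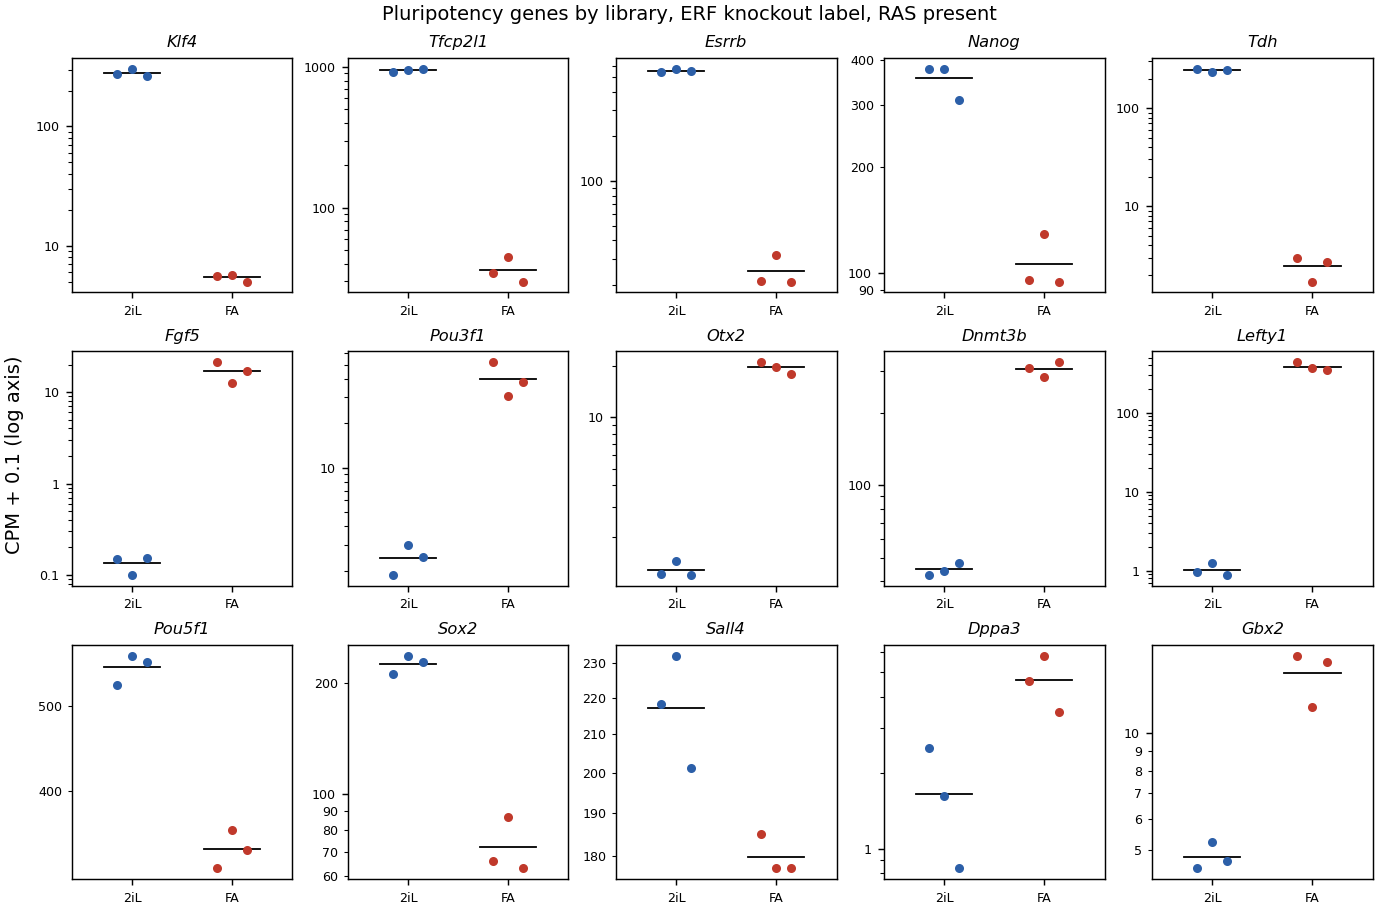
Level of 15 pluripotency genes in each library (CPM + 0.1, log axis, scale set per panel) under the ERF knockout label with RAS present; 3 points per medium, blue for 2iL and red for FA, black lines are group means. Klf4, Tfcp2l1, Esrrb, Nanog and Tdh are lower in every FA library, Fgf5, Pou3f1, Otx2, Dnmt3b and Lefty1 higher, and Dppa3 and Gbx2 rise against the rest of their list.

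Formative and primed genes rose. Of 18 listed, 17 were tested (Epha5 was not); 16 rose and 1 fell, with a median of 2.77, or 2.63 with the 3 genes that start at the floor set to their bounds. Pou3f1, a POU factor of the early epiblast, went from 1.78, 2.92 and 2.37 CPM to 51.8, 30.4 and 37.9 CPM (log2 change 4.09, SE 0.42, edgeR adjusted p 5.38e-07). Otx2, which directs enhancer choice in the formative state, rose from 1.11, 1.35 and 1.10 CPM to 20.9, 19.6 and 17.9 CPM (4.03, SE 0.24, edgeR adjusted p 1.66e-11). Sox3 rose by 3.02, Sall2 by 2.92, Zic2 by 2.54, Tcf15 by 1.68 and Grhl2, an epithelial enhancer factor, by 1.48. Car14 and Enpp2 were also called, from the floor, and were at least 9.27-fold and 6.20-fold higher.

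The member that went the other way was Foxd3, a forkhead factor, at 12.3, 13.2 and 12.4 CPM in 2iL and 2.57, 2.65 and 2.79 CPM in FA (log2 change -2.24, SE 0.19, edgeR adjusted p 2.82e-09). The de novo DNA methylation genes, in part on this list too, rose together. Dnmt3a went from 42.1, 47.5 and 40.4 CPM to 202, 215 and 207 CPM. Dnmt3b went from 42.3, 44.1 and 47.5 CPM to 308, 281 and 325 CPM. Dnmt3l, their catalytically inactive cofactor, rose from 14.3, 14.2 and 19.5 CPM to 249.6, 247 and 214 CPM.

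On the whole DNA methylation list 3 of 11 genes rose and 2 fell (median -0.07). The falls were Tet2, which oxidises methylcytosine, from 247, 236 and 230.2 CPM to 92.6, 93.4 and 93.6 CPM, and Zfp57, a guardian of imprints, from 456, 446 and 449.8 CPM to 82.0, 117 and 89.3 CPM. The maintenance genes Dnmt1 and Uhrf1 changed by -0.88 and -0.78, under 2-fold. Germline genes known to be silenced by promoter methylation did not fall as a group: 6 of 15 rose, 2 fell and the median was 0.80. Tdrd1 rose most, from 0.961, 0.866 and 0.736 CPM to 10.2, 11.4 and 12.7 CPM, followed by Tex101 (1.90), Taf7l (1.73) and Mael (1.23). Ddx4 and Sycp1 were the other rises, at 1.09 and 1.20, Sycp1 not without 2iL replicate 3 (0.98). Dazl fell by 1.33 and Asz1 by 1.18 on the log2 scale, Asz1 not in 2 of the fits that left out a library.

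The ligands and receptors of the FGF pathway came next. Of 14 genes, 6 rose and 1 fell (median 0.84). Besides Fgf5, the ligand gene Fgf15 rose from 0.913, 0.596 and 0.42 CPM to 7.74, 6.65 and 6.38 CPM. Fgf8 rose from 0.529, 0.271 and 0.526 CPM to 3.75, 1.69 and 3.35 CPM. The receptor gene Fgfr2 was at 1.25, 2.44 and 2.79 CPM in 2iL and 7.99, 8.86 and 9.52 CPM in FA, and Fgfr3 rose by 1.48. Fgf1 was called too (1.39) with overlapping ranges, and 6 of the alternatives lost it. Fgf17, another ligand, fell from 3.17, 3.41 and 2.26 CPM to 1.26, 0.825 and 1.47 CPM, a call lost when 1 of 3 libraries was left out (2iL replicate 1 or 2, or FA replicate 2; -1.11 to -1.26).

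Downstream, ERK response genes rose in part. Of 24 listed, 22 were tested (Egr2 and Egr3 were not): 8 rose, 1 fell and 13 were not called, with a median of 0.73. Dusp6, the ERK phosphatase gene that serves as a common readout of the pathway, went from 9.51, 11.5 and 9.93 CPM to 118, 99.9 and 111 CPM (log2 change 3.41, SE 0.22, edgeR adjusted p 3.78e-10). Dusp4, a nuclear ERK phosphatase gene, rose from 7.59, 11.3 and 11.7 CPM to 57.5, 62.7 and 54.5 CPM, and Dusp5 by 1.89. Egr1, an immediate early gene, went from 0.673, 0.92 and 0.946 CPM to 9.70, 6.08 and 7.33 CPM. The ETS activator gene Etv1 went from 4.95, 5.09 and 5.15 CPM to 46.2, 49.9 and 47.1 CPM.

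The feedback inhibitors of the Sprouty family did not move as one. Spry4 rose from 5.05, 5.14 and 6.10 CPM to 14.8, 9.99 and 15.4 CPM. Spry1 (0.62) and Spry2 (-0.78) did not reach 2-fold; Spry2 was at 68.2, 74.0 and 61.1 CPM in 2iL and 41.4, 34.7 and 42.0 CPM in FA. Etv4, an ETS activator gene that is a standard FGF target, was at 20.9, 19.1 and 22.2 CPM in 2iL and 24.2, 21.7 and 26.0 CPM in FA (log2 change 0.21, SE 0.17, edgeR adjusted p 0.347, and -0.01 with effective-length offsets). Junb, an immediate early AP-1 gene, was the 1 fall, from 8.75, 10.7 and 9.99 CPM to 5.05, 4.47 and 4.62 CPM, and was at -0.99 and not called without 2iL replicate 2. The list's Fosl1 was called from the floor, at least 4.34-fold higher, and Ccnd1, which encodes cyclin D1, rose by 1.13, a call lost (0.99) without FA replicate 3.

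Of 12 ETS factors, the family of ERF, 1 rose and 3 fell (median -0.14), against 12.3% and 7.46% of all genes tested. Ets1 rose from 1.59, 1.62 and 1.94 CPM to 8.76, 7.73 and 9.29 CPM. Elf3, an epithelial member, fell from 34.9, 39.4 and 39.7 CPM to 8.44, 7.99 and 8.05 CPM. Elk3, a repressor regulated by ERK like ERF, fell from 17.3, 18 and 19.3 CPM to 6.11, 6.47 and 5.02 CPM. Erf, with the values given above, was the third fall.

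In the Nodal and Activin pathway 6 of 17 tested genes rose and 2 fell (median 0.43). Apart from the Lefty pair, Skil, a SMAD corepressor and feedback target, rose from 57.4, 54.4 and 56.9 CPM to 294, 238 and 299 CPM. Nodal, the ligand gene, rose by 1.70 and Foxh1, the SMAD partner gene, by 1.30. Pcsk6, a convertase that cleaves the Nodal precursor, fell from 68.2, 76.6 and 77.9 CPM to 19.8, 19.9 and 17.5 CPM. The receptor gene Acvr1b fell by 1.17 on the log2 scale.

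LIF and the GSK3 inhibitor, an activator of Wnt signalling, are in 2iL and not in FA. Of 12 tested LIF and STAT3 genes, 6 fell and 1 (Gbx2) rose, with a median of -1.28. Socs3, the feedback inhibitor, fell from 155, 141 and 134 CPM to 4.97, 5.30 and 5.42 CPM (log2 change -4.77, SE 0.20, edgeR adjusted p 5.95e-13). Bcl3 fell from 22.4, 20.0 and 19.1 CPM to 1.83, 1.65 and 1.67 CPM. Stat3 itself fell by 2.11 and the receptor gene Lifr by 1.70 on the log2 scale, while Il6st, which encodes the shared receptor gp130, changed by -0.87, under 2-fold.

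Wnt targets were split: 5 of 15 rose and 2 fell (median 0.29). Lef1 rose from 1.30, 0.758 and 1.05 CPM to 33.4, 12.5 and 34.2 CPM, with FA replicate 2 lowest. Sp8 (3.45), Dkk1 (2.91), a secreted Wnt antagonist gene, and Nkd1 (1.94) also rose. Cdx1, a homeobox target of Wnt, fell from 9.90, 9.20 and 7.94 CPM to 0.245, 0.695 and 0.279 CPM. Notum, a Wnt deacylase gene, fell by 1.18, a call lost with effective-length offsets (-0.74).

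Adhesion genes were mixed. Of 13 epithelial and mesenchymal transition genes, 4 rose and 2 fell (median 0.60). Epcam rose from 29.7, 32.2 and 33.7 CPM to 163, 162 and 168 CPM, and the cadherin genes Cdh3 and Cdh2 by 1.77 and 1.68. Zeb2, a transition factor, rose from 0.577, 0.704 and 1.10 CPM to 6.24, 4.39 and 5.46 CPM. Fn1, which encodes the fibronectin that also coated the FA plates, fell from 2011, 2281 and 2261 CPM to 613, 737 and 541 CPM, and Ncam1 fell by 1.06 (-0.99 and not called without 2iL replicate 2).

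Polarity and lumen genes had 3 rises among 16 and no fall (median 0.30), which is not set apart from the 12.3% of all tested genes that rose. Cldn6, a tight junction gene, rose from 3.17, 2.65 and 3.57 CPM to 15.4, 14.6 and 19.8 CPM. Cldn3 (1.74) and Cgn (1.70), which encodes cingulin, were the other rises. Among 16 extracellular matrix genes only Itga3 rose (1.03) and only Nid1 fell, the latter from 296, 290.0 and 299.8 CPM to 44.2, 48.7 and 42.6 CPM; Itga3 was at 0.98 and not called without FA replicate 1.

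Glycolysis genes were split, also between isoforms of an enzyme. Of 22 glycolysis genes 5 rose and 4 fell (median 0.61). Hexokinase genes fell, Hk1 from 130.3, 136 and 139 CPM to 38.1, 39.4 and 30.6 CPM and Hk2 by 1.29 on the log2 scale. Of the phosphofructokinase genes, Pfkp fell from 307, 271 and 252 CPM to 109.7, 112 and 91.1 CPM and Pfkl rose from 57.4, 54.0 and 53.5 CPM to 199, 169.7 and 187 CPM. Slc16a3, a lactate exporter, rose from 8.02, 4.11 and 3.52 CPM to 58.9, 36.1 and 48.5 CPM. The glucose transporter gene Slc2a1 (1.21), Pgk1 (1.22) and Tpi1 (1.20) rose as well. Slc2a1 stood at the minimum (1.00) and was not called without FA replicate 1. Ldhb fell by 1.27, and Ldha changed by 0.68, under 2-fold.

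Among cholesterol synthesis genes 18 of 20 had a positive change, with a median of 0.53, but only Insig1 was called (1.08, and 0.99 without FA replicate 2). Of 15 one-carbon genes the 2 calls were falls, Tdh and Amt, the latter a subunit gene of the glycine cleavage system (from 79.3, 86.5 and 87.1 CPM to 28.9, 29.1 and 27.0 CPM). Of 12 integrated stress genes 1 fell (Nupr1, -1.38) and none rose, a count near the 7.46% of all genes that fell.

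No p53 target was called among 20 by edgeR or by DESeq2, with a median of -0.03; 11 had an unadjusted and 9 an adjusted edgeR p under 0.05, all at changes below 2-fold.

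Interferon and antigen presentation genes gave 5 rises and 1 fall among 17 (median 0.42). Gbp2, an interferon-induced GTPase, was at 0 counts in 2iL and at 16.3, 4.73 and 4.03 CPM in FA, at least 53.9-fold higher, and its paralog Gbp3 was at least 6.44-fold higher; reads could be shared between them. Irf1 rose from 13.9, 13.6 and 13.6 CPM to 62.0, 40.0 and 32.0 CPM. Psmb8, an immunoproteasome subunit gene, rose from 0.288, 0.108 and 0.21 CPM to 5.87, 2.48 and 2.71 CPM. In all 4, FA replicate 1 was highest. Ifi35 rose by 1.35.

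Markers of other cell types were checked in the same libraries. In bulk RNA, fewer cells of a type and less RNA per cell cannot be told apart. The list of 11 tested primitive endoderm genes (Afp and Ttr were not tested) had 5 rises and no fall (median 0.65). Its sum was 40.6, 65.5 and 104 CPM in 2iL and 219, 199 and 263 CPM in FA. Cubn, an endocytic receptor of visceral endoderm, rose from 5.96, 10.7 and 16.5 CPM to 95.0, 76.6 and 133 CPM. Dab2, its adaptor gene, rose from 7.59, 11.9 and 21 CPM to 45.3, 40.8 and 52.4 CPM. Sox7 went from 0.144, 0.596 and 1.16 CPM to 8.48, 7.69 and 7.17 CPM and Gata6, the lineage's early factor, from 3.89, 5.68 and 7.62 CPM to 17.9, 20.4 and 13.5 CPM. In all 4 genes 2iL replicate 3 was highest among the 2iL libraries and replicate 1 lowest. Gata4 (0.61) was not called, and Srgn was at 1.03, lost in 8 of the alternatives.

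Germ layer genes gave 5 rises and 1 fall among 13, mostly at low levels: Pax6 rose from 0.769, 0.271 and 0.21 CPM to 4.57, 4.95 and 5.06 CPM, Wnt3 from 0.24, 0.217 and 0.315 CPM to 4.77, 2.43 and 5.10 CPM, and Sox1 by 1.13. Mixl1 rose by 1.76, remaining under 1 CPM in each library, and Hand1, from the floor, was at least 12.5-fold higher. Gsc, an organiser factor gene, fell from 1.39, 1.89 and 1.21 CPM to 0.245, 0.478 and 0.399 CPM. The list's sum was 42.0, 49.4 and 50.9 CPM in 2iL and 76.4, 71.4 and 90.2 CPM in FA.

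Of 14 trophoblast genes 2 rose and 4 fell (12.3% and 7.46% of all genes tested did), and the sum went from 124, 136 and 154 CPM to 74.9, 83.3 and 96.4 CPM. Tead4 fell from 36.1, 41.6 and 43.5 CPM to 5.63, 6.47 and 4.94 CPM and Tfap2c from 46.1, 38.9 and 36.9 CPM to 8.32, 11.4 and 9.56 CPM. Gata2 (-2.73) and Plet1 (-1.14) also fell. Gata3 rose, but only to 0.448, 0.652 and 0.797 CPM.

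Genes of the 2-cell-like state, a rare totipotent-like fraction of such cultures, had 2 rises among 9 and sums of 251, 274 and 153 CPM in 2iL and 316, 317 and 184 CPM in FA, with replicate 3 lowest in both media. Duxf3, which encodes the activator of that state, went from 2.98, 3.52 and 1.31 CPM to 13, 14.9 and 9.21 CPM, and Zfp352 (1.21) was called with overlapping ranges. Members of these families resemble each other closely. Of 10 fibroblast genes 6 were tested and summed to 14 to 16.4 CPM in 2iL and 8.77 to 12.1 CPM in FA. Dcn, Twist2 and Col1a2 rose but stayed below 1 CPM in every library, with Dcn at 0 counts in 2iL, and Thy1 was called lower at the 2-fold minimum and lost in 6 of the alternatives.

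The FA response was then set against that of the line with wild-type ERF, which shares no library with it. There, 4891 genes (24%) were called. In both lines 1779 genes rose, which is 71.2% of the rises under the ERF knockout label and 66.1% of those with wild-type ERF. Falls in both numbered 1141, or 75.1% and 51.9%. The lines moved 16 genes in opposite directions. Passing in one line and not in the other is no test of a difference: of 1082 genes called only under the ERF knockout label, 139 had a called difference in response, and of 1955 called only with wild-type ERF, 391.

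That difference (the FA response under the ERF knockout label minus that with wild-type ERF) was called for 870 genes (4.27%), positive in 453 (2.22%) and negative in 417 (2.05%). Among these genes, the contrast between the lines was called in 2iL but not in FA for 277 of the positive and 319 of the negative differences. It was called in FA but not in 2iL for 45 and 21, in both media for 17 and 13 and in neither for 114 and 64. The wild-type line has 2 libraries in FA against 3 in 2iL, and these counts are no test between the media. The total was 577 without FA replicate 1 of the wild-type line, 1 of the libraries with raised chromosome 8 genes; without both of them it was 677. Of 1021 tested genes on chromosome 8 itself, 29 (2.84%) had a called difference.

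**Figure D3:**
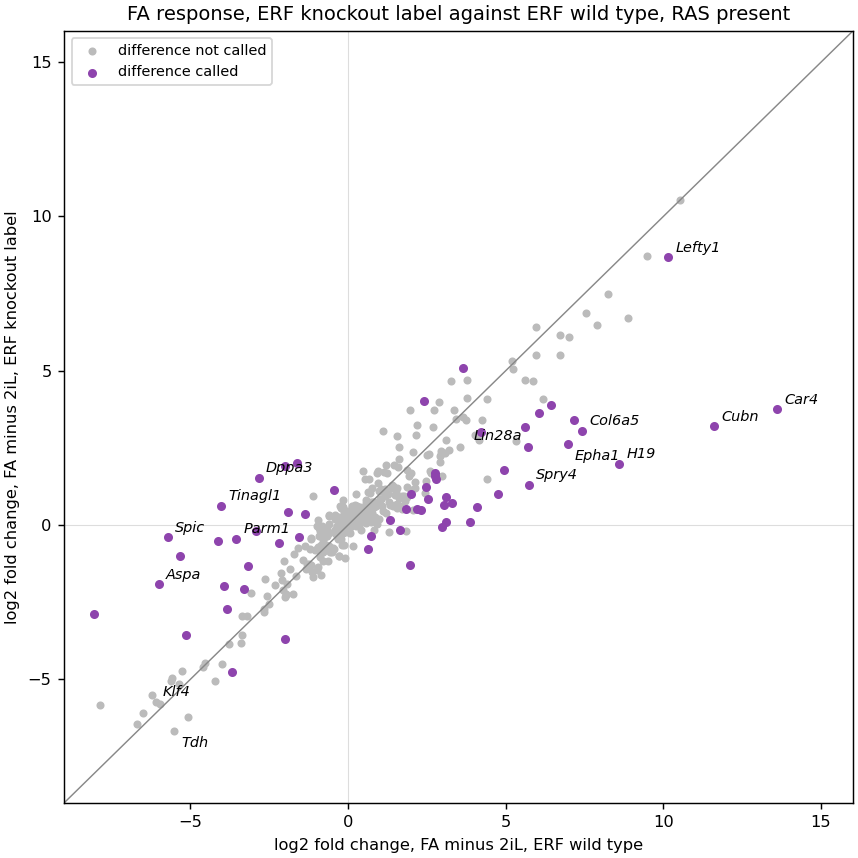
Fitted log2 fold change, FA minus 2iL, of the 395 list and named genes in the line with wild-type ERF (x axis) and under the ERF knockout label (y axis), RAS present in both. Purple points have a called difference in response and the line marks equal responses; values of genes at the floor, such as Car4 and Cubn with wild-type ERF, depend on the prior count of the fit.

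Genes are named here by the size of the difference, among those with separate responses per library and a mean of at least 10 CPM in a group. All 8 named for a smaller response had a higher 2iL level in every library under the ERF knockout label than with wild-type ERF, a difference called for all but H19. Car4, a membrane carbonic anhydrase gene, was at 2.45, 2.22 and 6.94 CPM in 2iL and 57.9, 47.6 and 50.9 CPM in FA. With wild-type ERF it was at 0 counts in 2iL and at 55.4 and 85.1 CPM in FA, at least 499-fold higher, so the difference in response was at least 5.21 on the log2 scale (fitted -9.85, edgeR adjusted p 0.00937). Cubn with wild-type ERF went from 0.07, 0.0595 and 0.0929 CPM to 339.9 and 157 CPM, at least 1763-fold, against 9.22-fold by the fit under the ERF knockout label, and the difference in response was -7.58 with the floor. In both genes the 2iL levels of the lines did not overlap, and the FA levels were lower here than in the other line only for Cubn.

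H19, an imprinted noncoding RNA, had a called difference between the lines in FA and not in 2iL. It reached only 3.75, 7.64 and 3.39 CPM in FA under the ERF knockout label, against 126 and 98.2 CPM with wild-type ERF (response difference -6.62, SE 1.10, edgeR adjusted p 0.00117). Its own rise here was not called without 2iL replicate 1 or FA replicate 2. Spry4 was at 5.05, 5.14 and 6.10 CPM in 2iL here and at 0.63, 0.536 and 0.604 CPM with wild-type ERF; in FA it was lower here, as the other line reached 38.3 and 25.6 CPM (response difference -4.43, SE 0.35, edgeR adjusted p 4.64e-08). Epha1, an ephrin receptor gene, reached like levels in FA (11.8, 10.2 and 16.3 CPM here, 11.8 and 12.0 CPM there) from 2.02, 1.95 and 2.26 CPM here and at most 0.14 CPM there. Col6a5 (-4.38), Aire (-3.78) and Adam23 (-3.75), a disintegrin gene, were the others of the 8 named by size.

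Of the 8 genes named for a difference in the positive direction, 7 had a lower 2iL level under the ERF knockout label than with wild-type ERF in every library, and fell with wild-type ERF. Spic, which encodes an ETS factor, was at 0.288, 0.704 and 0.946 CPM in 2iL and 0.245, 0.434 and 0.757 CPM in FA. With wild-type ERF it went from 18, 12.0 and 12.6 CPM to 0.216 and 0.331 CPM (response difference 5.30, SE 0.77, edgeR adjusted p 1.55e-04). Dppa3, described above as a rise, started at 28.6, 30.4 and 27.8 CPM with wild-type ERF and ended at 3.78 and 4.31 CPM, within the range of the FA libraries here (response difference 4.37, SE 0.39, edgeR adjusted p 9.80e-07). Parm1 was at 15, 14 and 12.1 CPM in 2iL and 10.3, 10.9 and 8.89 CPM in FA, against 85.1, 73.6 and 74.4 CPM and 6.84 and 6.39 CPM with wild-type ERF. Aspa, aspartoacylase, was at 1.87, 1.73 and 2.00 CPM in 2iL against 13.7, 17.1 and 17.7 CPM.

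Tinagl1, the exception, was at 7.06, 12.4 and 17.6 CPM in 2iL and 12.9, 16.3 and 27.7 CPM in FA, while with wild-type ERF its FA level was 1.08 and 1.66 CPM. Ly6a (5.17), Fbln5 (4.32) and Prdm16 (2.73, not called with effective-length offsets) completed the set. The call for Ly6a was lost in 5 of the alternatives, and Ly6a belongs to a family of similar genes.

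Median responses in the 2 lines were -2.96 and -3.28 for the naive list and 2.77 and 2.94 for the formative list. Among naive genes the difference was called for Dppa3 and Gbx2 (-1.16), the latter lost in 12 of the alternatives. Among formative genes it was positive for Otx2 (1.62, SE 0.34, edgeR adjusted p 0.00338), whose 2iL level was 4.66, 5.36 and 4.46 CPM with wild-type ERF, and negative for Sox3 (-1.20) and Tcf15 (-1.09). The last was lost in 9 of the alternatives and Sox3 in 2. Lin28a (-3.17) and Utf1 (-1.30) of the general list and Dnmt3l (-2.55) started higher in 2iL under the ERF knockout label: Lin28a measured 43.6 CPM or more there and at most 8.45 CPM with wild-type ERF.

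ERK response genes had 5 called differences. Spry4, Spry2 (-1.41) and Spred1 (-1.02), which encode feedback inhibitors, were negative; Fos (1.63) and Ccnd1 (1.59) were positive. Spred1 was lost in 5 of the alternatives and Ccnd1 in 10. Spry2 with wild-type ERF was at 32.3, 43.8 and 46.0 CPM in 2iL and at 64.9 and 60.5 CPM in FA, so its FA level was lower here. Of the 12 ETS factors none had a called difference by edgeR or DESeq2, and 7 had an unadjusted edgeR p under 0.05.

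Primitive endoderm genes had the largest median difference of the 25 lists, which were written with earlier results of these data known. The median response was 0.65 here and 3.09 with wild-type ERF, where 10 of 11 rose, and the difference in response was negative in 7 and positive in none (median -2.44, against -0.01 over all genes). The 7 were Cubn (-8.39), Hnf4a (-3.78), Foxa2 (-3.49), Dab2 (-3.16), Pdgfra (-2.98), Sox7 (-2.44) and Amn (-2.40). The list's sum in 2iL was 40.6 to 104 CPM here and 15.9 to 26.5 CPM with wild-type ERF, whereas in FA it was 199 to 263 CPM here and 543 and 279 CPM there. Cubn made up much of the sum in FA: without it the other 10 genes summed to 123 to 129.5 CPM here and to 204 and 122 CPM there, which overlap, and in 2iL to 34.6 to 87.6 CPM here and 15.8 to 26.5 CPM there. Pdgfra, a receptor marking the lineage, was at 5.81, 8.55 and 15.3 CPM in 2iL here and at 2.17, 1.73 and 1.90 CPM there. Col4a1, a basement membrane collagen gene outside the list, was likewise higher in 2iL here, at 154, 263 and 470.2 CPM against 30.7, 22.7 and 18.2 CPM. Its response difference of -3.04 was a call lost in 3 of the alternatives. The extracellular matrix list as a whole did not shift, with 1 positive (Nid1, 1.13) and 2 negative differences among 16 and a median of 0.07.

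The count of 7 rests in part on single libraries. It was 4 without 2iL replicate 3 of the ERF knockout label, without 2iL replicate 2 or FA replicate 1 of the wild-type line, without replicate 1 of that line in both media, and with effective-length offsets. Sox7 was lost in 13 of the alternatives, Amn in 10 and Foxa2 in 5, while Cubn, Dab2, Hnf4a and Pdgfra were called in all of them.

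**Figure D4:**
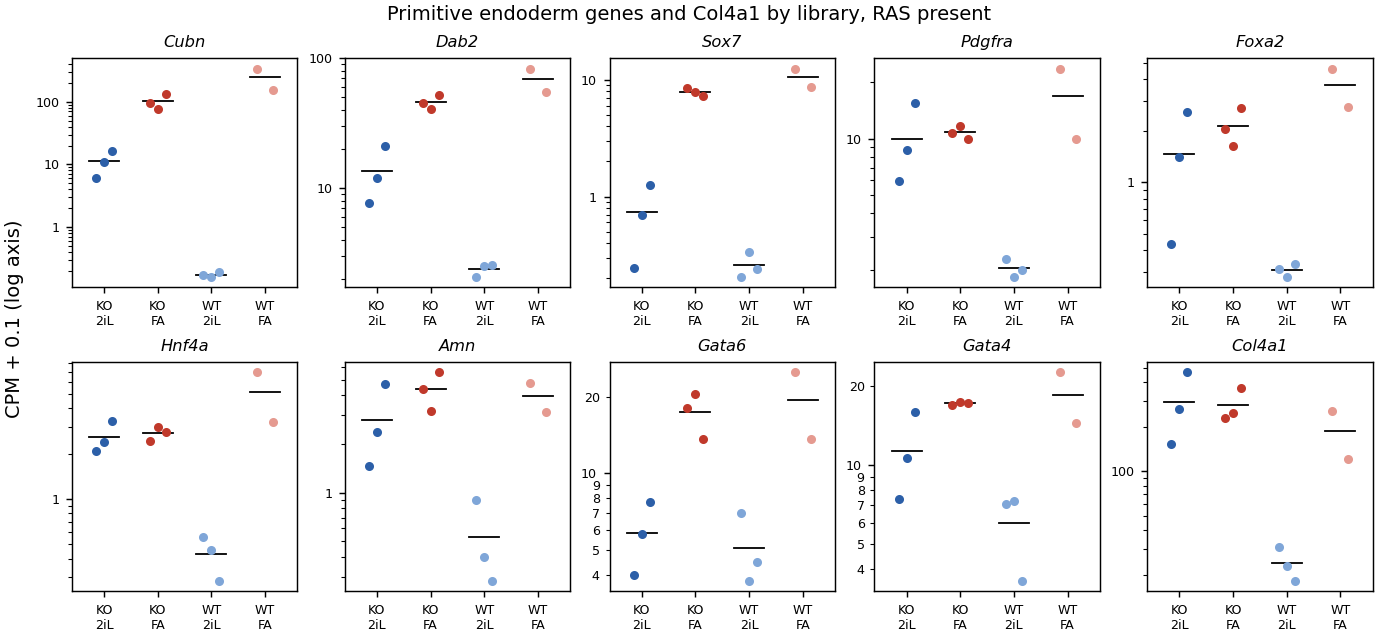
Level of 9 primitive endoderm genes and Col4a1 in each library with RAS present (CPM + 0.1, log axis, scale set per panel): KO is the ERF knockout label and WT wild-type ERF, 1 point per library, black lines are group means. Cubn, Dab2, Sox7 and Gata6 are higher in FA in both lines, and the KO libraries in 2iL lie above the WT libraries in 2iL for most panels, with replicate 3 highest.

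Of the remaining lists, p53 targets held 3 positive and 1 negative called difference among 20 (median 0.34). The glycolysis, FGF and Nodal lists each held 2 negative and 0 positive differences, among 22, 14 and 17 genes (medians -0.44, -0.26 and -0.11). Wnt targets held 2 positive and 0 negative among 15, and LIF and STAT3 genes 1 positive and 2 negative among 12. Polarity, DNA methylation and integrated stress lists held 1 negative each. The 2-cell-like, fibroblast, epithelial and mesenchymal transition, one-carbon, cholesterol and interferon lists held none by edgeR or DESeq2, with 0 to 7 members each at an unadjusted edgeR p under 0.05. The trophoblast gene Gata3 (3.63) rose here to under 1 CPM and fell with wild-type ERF from 4.69, 6.01 and 4.41 CPM to 1.37 and 1.89 CPM, and Tfap2c differed by 1.24, a call lost (0.94) without FA replicate 1 of the wild-type line. Eomes (-1.17) and Krt19 (-2.21, or -2.06 with the floor) were the 2 negative differences of that list, whose median was -0.02. Eomes was lost in 1 of the alternatives and Krt19 in 5. Tex101 (3.91) likewise rose here and not there. Dazl (1.84) fell less here, and Mael (-1.26, lost in 8 of the alternatives) made the germline tally 2 positive and 1 negative. Gsc (1.95, lost in 4) also fell less here, and the germ layer list held 1 positive and 2 negative differences, the latter Eomes and Foxa2. Fgf17 (-3.26) fell here while it was higher in FA with wild-type ERF, at 2.16 and 1.23 CPM against 0.56, 0.179 and 0.511 CPM in 2iL, a call lost (-2.76) without FA replicate 1 of that line.

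The last comparison kept the ERF knockout label and asked whether the response differed once RAS was deleted, a state that came with 4-hydroxytamoxifen, so that drug and deletion cannot be told apart. The difference (RAS present minus RAS deleted) was called for 936 genes (4.59%), positive in 470 (2.31%) and negative in 466 (2.29%). The positive count fell to 306 without FA replicate 2. It rose to 742 with no filter on low counts and to 771 with a replicate block in only the groups compared. The ERK response list held 9 positive and no negative differences, with a median of 1.01 against -0.00 over all genes. It was not alone: the median was 1.33 for the 2-cell-like list (1 positive of 9) and 1.06 for the primitive endoderm list (2 positive of 11). Germline genes held 4 positive of 15 and p53 targets 3 of 20, with none negative, and polarity genes 3 positive and 1 negative of 16.

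Etv4 showed the largest difference of the ERK response list: with RAS present it was level between media, as given above, and with RAS deleted it went from 17.6 ± 3.10 CPM to 0.57 ± 0.196 CPM (SD, n = 3 each; response difference 5.15, SE 0.33, edgeR adjusted p 5.41e-09). Spry4 with RAS deleted went from 5.39 ± 0.944 to 0.625 ± 0.0791 CPM (SD, n = 3 each; difference 4.39, SE 0.34, edgeR adjusted p 1.84e-08). Dusp4 changed from 7.11 ± 1.64 to 5.48 ± 0.383 CPM there (SD, n = 3 each), against the rise with RAS present (difference 2.90, SE 0.52, edgeR adjusted p 0.00193). Dusp6 reached 23.5 ± 1.54 CPM in FA with RAS deleted (SD, n = 3), against 99.9 to 118 CPM with RAS present. Egr1 (2.87), Phlda1 (1.56), Junb (1.09), Dusp1 (1.05) and Fos (1.03) made up the 9. Fos was lost in 10 of the alternatives, Dusp1 in 3 and Junb in 1.

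Outside that list, Epha1 (4.44) and Duxf3 (2.95) responded more with RAS present. Epha1 with RAS deleted went from 3.61 ± 0.583 to 1.01 ± 0.0996 CPM (SD, n = 3 each). Of 14 FGF ligand and receptor genes, Fgfr2 and Fgf8 had a smaller response with RAS present and Fgfr4 (1.18, lost in 9 of the alternatives) a positive difference (median of the list -0.40). Fgfr2 reached 53.2 ± 3.80 CPM in FA with RAS deleted (SD, n = 3), above the 7.99 to 9.52 CPM measured with RAS present (difference -4.25, SE 0.56, edgeR adjusted p 1.29e-04). Fgf8 reached 34.1 ± 5.94 CPM there (SD, n = 3; difference -4.02), a call lost without 2iL replicate 1 or 3. Rasgrp3, an exchange factor gene for RAS, reached 12.7 ± 0.331 CPM there (SD, n = 3) and 1.10, 0.782 and 0.917 CPM with RAS present (difference -3.55, a call lost with effective-length offsets).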

How the data were processed

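Total RNA, depleted of ribosomal RNA, was sequenced as 75 base paired reads from a directional kit, per the labels' protocols. Base calls and trimming used bcl2fastq 2.20.0 and fastp 0.20.0, and Salmon (version not given) and build mm10 (GRCm38) are named, per the submitters' processing notes; the annotation is not given in the sources used here. The authors deposited estimated counts per gene, TPM values and effective lengths; columns were matched to samples by name. Estimated counts were rounded and fitted for 20372 of 53607 genes in 1 model over 23 libraries and 8 groups with edgeR 4.0.16 (R 4.3.3; filterByExpr, TMM, robust quasi-likelihood), with Benjamini-Hochberg adjustment over all tested genes. The model was tested on simulated data. A call needed an adjusted p under 0.05 and a 2-fold change; SE is the absolute log2 change over the root of F. A bound ("at least") sets a group with at most 3 counts per library to 3. DESeq2 1.42.0 and other settings served as alternatives, while limma 3.58.1 was loaded with edgeR but used for no fit of its own. Same-numbered replicates are not stated to be related, so the main fit used no block. The correlations of their deviations were 0.0388, 0.101 and 0.163, of which 0.101 and 0.163 exceed the limit of 0.1 set for pairing. Between different numbers they ran from -0.149 to 0.0626. A fit with a replicate block is among the alternatives.

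Genes were named by size (the 12 largest rises and falls with separate CPM ranges and a mean of 10 CPM, 8 and 4 response differences per direction with separate per-library responses, 4 per direction by TPM), by up to 4 called members per list with those against its direction, and, for a further set including Nanog, Otx2, Pou5f1 and the endoderm differences, after their values were seen. Members and lists were chosen with earlier results of these data known. A few genes, a target gene among them, are not reported here. No replicate pair agreed within sampling noise.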

Additional observations from a re-analysis of the deposited data

Results flagged for a closer look

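Every result here was flagged because the FA response differed between groups of samples by the edgeR test of the difference itself. Between the ERF knockout label and wild-type ERF, 870 genes differed, and between RAS present and RAS deleted under the ERF knockout label, 936. Values below are log2 differences in response.

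For the ERF knockout label minus wild-type ERF, the naive, general and formative genes flagged were Dppa3 (4.37), Gbx2 (-1.16), Lin28a (-3.17), Utf1 (-1.30), Otx2 (1.62), Sox3 (-1.20), Tcf15 (-1.09) and Dnmt3l (-2.55). Signalling genes were Spry4 (-4.43), Spry2 (-1.41), Spred1 (-1.02), Fos (1.63), Ccnd1 (1.59), Fgf17 (-3.26), Lefty1 (-1.47), Socs3 (-1.09), Bcl3 (1.56) and Epha1 (-4.36). Endoderm and matrix genes were Cubn (-8.39), Hnf4a (-3.78), Foxa2 (-3.49), Dab2 (-3.16), Col4a1 (-3.04), Pdgfra (-2.98), Sox7 (-2.44), Amn (-2.40) and Nid1 (1.13). Germline and other lineage genes were Tex101 (3.91), Dazl (1.84), Mael (-1.26), Gata3 (3.63), Tfap2c (1.24), Gsc (1.95), Eomes (-1.17), Krt19 (-2.21) and Wt1 (1.46). The remaining genes were Car4 (-9.85), H19 (-6.62), Col6a5 (-4.38), Aire (-3.78), Adam23 (-3.75), Slc16a3 (-2.44), Spic (5.30), Ly6a (5.17), Tinagl1 (4.65), Fbln5 (4.32), Aspa (4.11), Parm1 (3.10) and Prdm16 (2.73). Among genes not followed further in the report, Socs3 was lost in 10 of the alternatives, Lefty1 and Wt1 in 6 each, Slc16a3 in 3 and Nid1 in 2. Car4 and Cubn in 2iL and Ly6a in FA are at the floor with wild-type ERF, so their fitted values depend on the prior count; with 3 counts per library in that group the differences are -5.21, -7.58 and 5.20.

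For RAS present minus RAS deleted, the genes were Etv4 (5.15), Epha1 (4.44), Spry4 (4.39), Duxf3 (2.95), Dusp4 (2.90), Egr1 (2.87), Dusp6 (2.19), Phlda1 (1.56), Junb (1.09), Dusp1 (1.05), Fos (1.03), Fgfr2 (-4.25), Fgf8 (-4.02), Fgfr4 (1.18) and Rasgrp3 (-3.55).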

How the results depend on the processing

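With no 2-fold minimum the count of changed genes was 9549 (5004 higher, 4545 lower), that of ERF response differences 1902 (992 higher, 910 lower) and that of RAS response differences 2669 (1364 higher, 1305 lower). Leaving out each library in turn gave 3697 to 3854 changed genes (2266 to 2386 higher, 1407 to 1519 lower), 577 to 1029 ERF differences (272 to 586 higher, 305 to 465 lower) and 650 to 1021 RAS differences (306 to 528 higher, 343 to 493 lower). The lowest ERF count, 577 with 272 higher, came without FA replicate 1 of the wild-type line, which leaves 1 library in that group, assumed to vary like the others. Without replicate 1 in both media of that line, an alternative chosen after seeing the data, 294 were higher. RAS differences in the higher direction numbered 742 with no filter on low counts and 771 with a replicate block in only the groups compared, and 306 without FA replicate 2 of the ERF knockout label with RAS present.

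The labels give the samples of both media only a common number, although the chromosome 11 shift of replicate 1 was seen in both (0.17 and 0.13). The fit of only the groups compared, without a block, gave 3452 changed genes, 806 ERF and 1237 RAS differences (646 higher) and shared 81.5% of the rises and 85.4% of the falls of the fit to all groups. Adding the replicate block to it gave 3555 changed genes (2170 higher, 1385 lower), 780 ERF and 1401 RAS differences, sharing 82.8% and 85.8%. FA replicate 1 correlated best with 2iL replicate 2 (0.0626, against 0.0388 with 2iL replicate 1). Every other sample correlated best with its own number (0.0388, 0.101 and 0.163 for replicates 1, 2 and 3). Across the alternatives, single genes kept their direction and side of the threshold in 2370 checks, lost the call in 57 and gained it in 8; Etv4 turned to -0.01 with effective-length offsets. Named response differences held in 1084 and were lost in 151. List medians moved by more than the limit in 14 of 325 checks, most for the fibroblast list (0.69 to 0.85). Counts of calls per list were less steady: they moved in 15 checks and held in 61. Genes at a few counts, such as those below 1 CPM, limit what this depth can show.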
